A study of Mus musculus with 25 samples.

Results

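Ifit1, Ifit2, Ifit3, Isg15, Mx1, Oasl1, Rsad2, Irf7, Usp18 and Ifi44, 10 antiviral genes known as targets of type I interferon, were followed in melanomas treated with an antibody against CTLA-4. The 10 were taken by gene symbol from a table of 55450 genes, and each symbol had 1 row. They were set beside genes known for induction by interferon gamma, so that the levels of both sets could be read in the same tumours.

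Each of the 25 samples was the bulk RNA of 1 tumour grown from B2905, a mouse melanoma cell line also called M4, in C57BL/6 mice, and no genetic change of the hosts is named. Of 40 implanted mice, 30 received anti-CTLA-4 antibody and 5 received IgG2b antibody as the isotype control, at 10 mg/kg from an average tumour volume of 75 mm3, and the mice left without antibody were not analysed here. Among the sequenced tumours under anti-CTLA-4, 8 had shrunk (responders), 6 had kept their size (stable) and 6 had grown (non-responders) by 10 to 11 days after the last dose, and 5 IgG2b tumours served as controls. The samples do not cover all 30 mice given anti-CTLA-4, so these numbers are not the response rate of that arm. CTLA-4 is an inhibitory receptor of T cells, and the groups under anti-CTLA-4 were defined by outcome, so no group is a randomized treatment against another. All tumours came from 1 line.

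Type I interferons (the alpha interferons, interferon beta and relatives) signal through the receptor pair Ifnar1 and Ifnar2 to a complex that includes Stat2 and Irf9 and binds the interferon-stimulated response element (ISRE) in promoters of antiviral genes. Interferon gamma, made mainly by T and NK cells, signals through another receptor to factors that bind the gamma-activated site (GAS) and induce Irf1, Ciita, Cxcl9 and antigen presentation genes. The responses overlap, since Irf1 also acts on antiviral promoters.

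Of the members, 4 carry ISRE letters close to their start site, and these stretches are shown because the members were chosen as ISRE-type targets. RefSeq promoter windows of 300 bases (GRCm38.p6, 250 before to 50 after the start) matched 8 of the 10 members, all but Mx1 and Usp18. The letters GAAA, then 2 bases of any kind, then GAAA, searched on both strands with overlapping matches counted, were present in the windows of 4 of these 8 members and in 3.44% of all 32851 windows. Capitals mark the matched letters, each sequence reads 5′ to 3′ on the gene's own strand, and TTTC, 2 bases and TTTC is the same motif read from the other strand.
Isg15: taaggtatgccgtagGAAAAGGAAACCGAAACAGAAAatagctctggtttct
Ifit1: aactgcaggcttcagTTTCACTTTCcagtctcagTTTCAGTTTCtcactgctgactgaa
Ifit3: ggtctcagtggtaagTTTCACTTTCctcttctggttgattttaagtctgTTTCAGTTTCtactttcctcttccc
Rsad2: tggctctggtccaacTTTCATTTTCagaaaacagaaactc
The Isg15 stretch lies at chr4:156200860-156200911 on the minus strand, with 3 overlapping matches from 78 to 57 bases before the start. The Ifit1 stretch lies at chr19:34640770-34640828 on the plus strand and holds 2 matches, and that of Ifit3 lies at chr19:34583358-34583431 on the plus strand and also holds 2. Rsad2 has 1 match, at chr12:26456548-26456587 on the minus strand. The GAS letters TTC, 3 bases of any kind and GAA (the same on both strands) were found in 1 member (Ifit2) and in 8.30% of all windows, and the windows of Ifi44, Oasl1 and Irf7 held neither set of letters. Of 9 gamma genes with a window, 4 held the ISRE letters and 4 the GAS letters. A match is a description of letters, not a measured binding site.

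All 10 are protein-coding genes of GRCm38 (GENCODE M21). Ifit2 (chr19:34550694-34576419), Ifit3 (chr19:34583531-34588731) and Ifit1 (chr19:34640871-34650009) lie close together. The others lie apart, Ifi44 at chr3:151730922-151749960, Isg15 at chr4:156199424-156200818, Oasl1 at chr5:114923240-114937915, Usp18 at chr6:121245906-121270917, Irf7 at chr7:141262706-141266481, Rsad2 at chr12:26442746-26456452 and Mx1 at chr16:97447035-97462907. Near-identical relatives share reads with 3 members. Deposited values were not whole, a sign that reads were divided between genes, in 25 of 25 tumours for Ifit3, 24 for Ifit1 and 17 for Mx1, and were whole in all 25 tumours for the other 7. These 3 genes are therefore less certain. Irf7 overlaps Phrf1 on the opposite strand, and the sources used here do not state whether strand entered the counting.

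The libraries held 8.76 to 34.3 M counts (M, mega), and their composition differed between groups. Protein-coding genes took 63.9 ± 18.8% of counts in responders (SD, n = 8), from 23.8% to 87.0%, against 86.2 ± 1.86% in stable tumours, 86.1 ± 1.97% in non-responders and 87.4 ± 0.842% in controls. Mitochondrial ribosomal RNA took 1.15% to 14.3% of counts in responders and 1.31% to 7.28% in stable tumours, against 0.783% to 1.06% in non-responders and 0.546% to 0.966% in controls. The share differs with outcome, so responder results are also given with the share as a covariate and with only the 4 responders at or above 70% (responders 2, 3, 5 and 6). Melanocyte markers, summed over 5 genes, ran from 7658 to 12760 CPM in controls (CPM, counts per M counts of the TMM-scaled library), 378 to 10140 CPM in non-responders, 181 to 480 CPM in responders and 127 to 281 CPM in stable tumours. In the last 2 groups the pigment genes were low, with Dct at most 189 CPM, Pmel 62.7, Tyr 19.8 and Mlana 7.31. Their lowest control values were 4529, 1798, 723 and 123 CPM. Much of the low sums was Sox10, which is not a pigment gene. Sox10 ran from 128 to 314 CPM in responders, 121 to 252 CPM in stable tumours and 321 to 391 CPM in controls. Since the labels number the libraries group by group, processing order and group cannot be told apart. In bulk tumours, fewer cells of a type and less RNA per cell cannot be told apart.

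By length-scaled level, in the authors' RPKM (reads scaled by gene length and library size), Ifit3 had the highest mean of the members over the 25 tumours, 33.5, and Oasl1 the lowest, 3.44. Between them came Irf7 at 19.4, Ifit2 at 17.8, Ifit1 at 13.5, Isg15 at 13.2, Usp18 at 11.6, Rsad2 at 7.46, Mx1 at 6.04 and Ifi44 at 4.85 RPKM. All 10 members passed the filter on low counts. Neighbours such as Ifit1 and Isg15 were closer than the spread between tumours, which ran from 4.18 to 28.3 RPKM for Ifit1.

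Among the tumours under anti-CTLA-4, the mean levels of 9 of the 10 antiviral genes were highest in those that grew and lowest in those that shrank. In responder minus non-responder, these 9 members were lower in responders (edgeR, adjusted p under 0.05) and Mx1 was not called, with a median log2 fold change of -1.24 over the 10. Of all 18031 genes tested, 23.8% were called lower in the same comparison, and the median log2 fold change of all genes was 0.05.

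**Figure D1:**
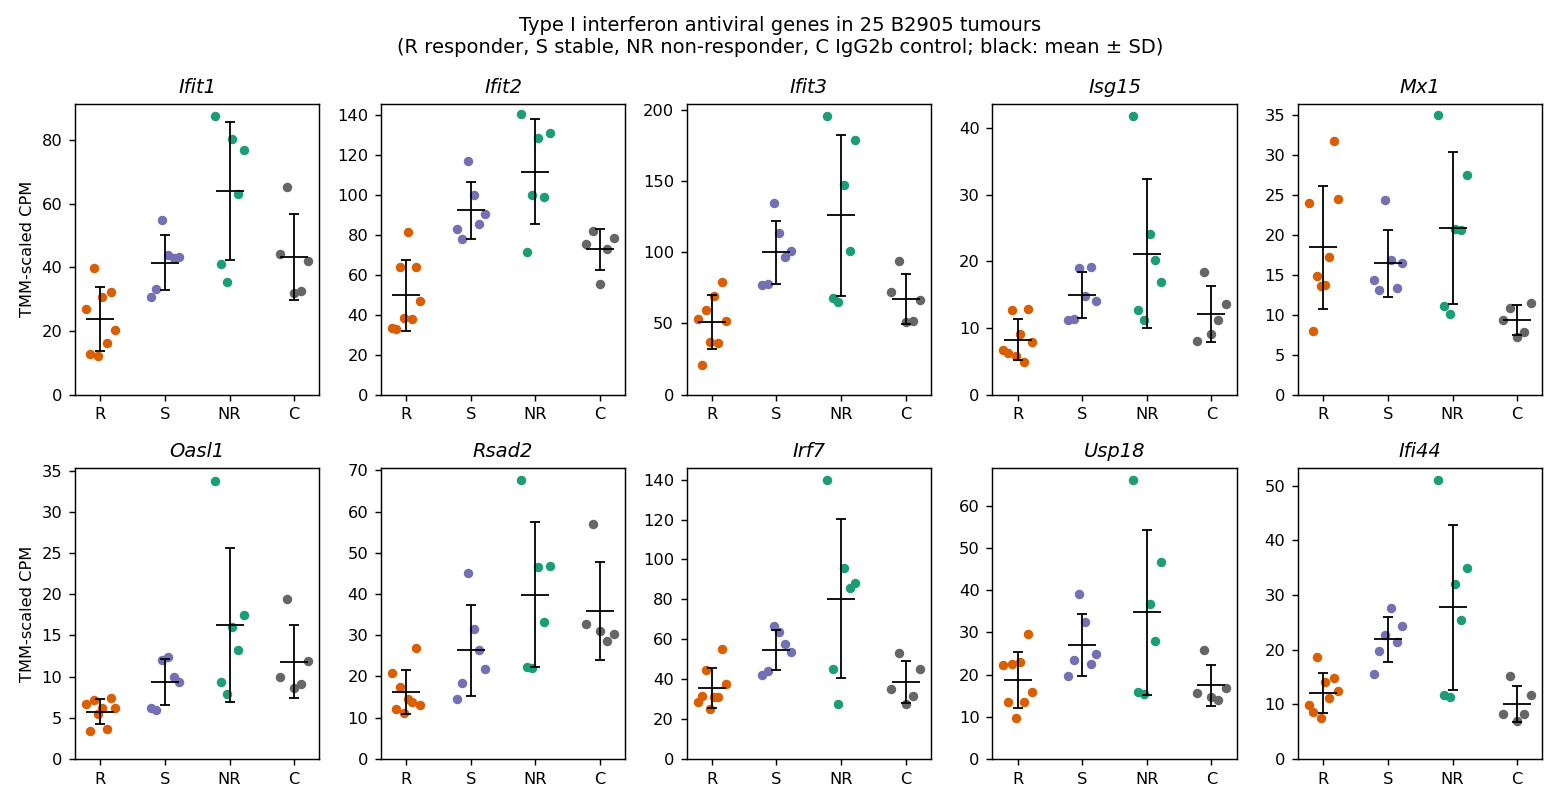
Level of each of the 10 antiviral genes (y axis, TMM-scaled CPM) in 8 responders (R), 6 stable tumours (S), 6 non-responders (NR) and 5 IgG2b controls (C). Points are tumours and black bars the mean ± SD. For 9 genes the responder mean lies below the stable and non-responder means, while Mx1 means of the 3 anti-CTLA-4 groups lie from 16.4 to 20.8 CPM, above the control mean of 9.32 CPM.

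The Ifit genes encode proteins that bind viral RNA and limit its translation. Ifit1 was measured at 12.0 CPM in the lowest responder, 23.5 CPM at the median and 39.8 CPM in the highest. Its lowest, median and highest levels were 35.2, 69.8 and 87.6 CPM in non-responders, and 30.7, 43.0 and 54.7 CPM in stable tumours. In the 5 controls Ifit1 stood at 44.2, 65.2, 31.8, 32.5 and 41.9 CPM. Only the highest responder exceeded the lowest non-responder, and the control level lay with the stable tumours. Summed with its relatives Ifit1bl1 and Ifit1bl2, Ifit1 stood at 29.7 ± 11.2 CPM in responders and 46.4 ± 14.3 in controls (SD). The sum was 50.3 ± 8.49 CPM in stable tumours and 73.0 ± 25.2 CPM in non-responders. The log2 fold change of Ifit1 was -1.42 ± 0.26 (SE) in responder minus non-responder, a 2.68-fold difference with an edgeR adjusted p of 0.00025.

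Ifit2 ran from 32.8 through a median of 42.4 to 81.2 CPM in responders, and from 71.1 through 114 to 140 CPM in non-responders. Stable tumours held 77.8, 87.8 and 117 CPM of Ifit2 as lowest, median and highest. Its controls held 75.5, 81.7, 55.1, 73.0 and 78.1 CPM. Responder 5, the responder with the highest protein-coding share, had the highest Ifit2 of its group and was the only responder above 63.8 CPM. Ifit2 gave the smallest adjusted p of the members in responder minus non-responder (log2 fold change -1.16 ± 0.19, adjusted p = 0.0001).

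Ifit3 had 21.1, 52.4 and 79.3 CPM in responders (lowest, median, highest), 76.9, 98.9 and 135 CPM in stable tumours, and 65.1, 124 and 196 CPM in non-responders. In controls it stood at 72.2, 93.8, 50.8, 51.5 and 66.7 CPM. Responders and stable tumours overlapped only through responder 7. Ifit3 was 2.47-fold lower in responders than in non-responders (adjusted p = 0.000586). Summing Ifit3 with its near-copy Ifit3b left the order of the groups as it was, at 58.7 ± 22.1 CPM in responders, 83.2 ± 22.5 in controls, 117 ± 27.0 in stable tumours and 153 ± 67.4 CPM in non-responders (SD).

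Isg15, a ubiquitin-like protein that is joined to other proteins, and Usp18, the protease that removes it and also dampens signalling at the type I receptor, followed the same order between responders and non-responders. Isg15 was at 4.91, 7.28 and 12.8 CPM in responders (lowest, median, highest), 11.2, 14.4 and 19.1 in stable tumours and 11.2, 18.6 and 41.9 CPM in non-responders. Usp18 ran from 9.78 through 19.1 to 29.6 CPM in responders, from 19.7 through 24.1 to 39.0 in stable tumours and from 15.3 through 32.4 to 66.1 CPM in non-responders. Controls held 8.00, 18.5, 9.08, 11.2 and 13.6 CPM of Isg15, and 15.7, 25.9, 14.6, 14.0 and 16.9 CPM of Usp18. The ranges of all 4 groups overlapped for Usp18. In responder minus non-responder, Isg15 had a log2 fold change of -1.35 ± 0.27 (adjusted p = 0.000545). Usp18 had -0.89 ± 0.29 (adjusted p = 0.0137), and this was the only one of the 9 calls lost when 1 tumour was left out, non-responder 1.

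Oasl1, an oligoadenylate synthetase-like protein that represses translation of Irf7, separated responders from both non-responders and controls without overlap. Its responder values ran from 3.39 through 6.18 to 7.41 CPM, and its non-responder values from 7.91 through 14.6 to 33.8 CPM. The controls stood at 9.90, 19.4, 8.65, 9.07 and 11.9 CPM, and stable tumours between 6.00 and 12.4 CPM with a median of 9.70. For this and the other separations without overlap named here, the share of all genes was not counted. Of all genes, 23.8% were called lower in responders than in non-responders, and 28.9% lower than in controls. With a log2 fold change of -1.50 ± 0.28, or 2.82-fold, Oasl1 had the largest difference of the 10 members in responder minus non-responder (adjusted p = 0.000312).

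Rsad2 encodes viperin, an enzyme that makes a chain-terminating nucleotide. It was measured at 11.2, 14.1 and 26.9 CPM in responders (lowest, median, highest), 14.6, 24.1 and 45.2 in stable tumours, and 22.1, 39.9 and 67.7 CPM in non-responders. Controls had 32.8, 57.1, 31.0, 28.7 and 30.3 CPM. Every control lay above every responder, while the controls lay within the range of the non-responders. Rsad2 was 2.46-fold lower in responders than in non-responders (log2 fold change -1.30 ± 0.27, adjusted p = 0.000697).

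Irf7, the transcription factor that amplifies type I interferon production, ran from 24.9 through 31.3 to 55.2 CPM in responders, from 42.0 through 55.6 to 66.5 in stable tumours and from 27.6 through 86.8 to 140 CPM in non-responders. The controls held 35.3, 53.2, 27.6, 31.6 and 45.2 CPM, in the range of the responders. Ifi44, an interferon-induced protein, had 7.40, 11.8 and 18.7 CPM in responders (lowest, median, highest), 15.6, 22.1 and 27.6 in stable tumours, and 11.3, 28.8 and 51.0 CPM in non-responders. Its controls held 8.23, 15.1, 7.00, 8.25 and 11.6 CPM, all below the lowest stable tumour. Irf7 and Ifi44 had log2 fold changes of -1.17 ± 0.25 (adjusted p = 0.000901) and -1.18 ± 0.28 (adjusted p = 0.00166) in responder minus non-responder.

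Mx1 was the member not called between responders and non-responders. It encodes a GTPase that blocks influenza and related viruses, and C57BL/6 mice carry a defective allele of it. Mx1 ran from 7.97 through 16.0 to 31.7 CPM in responders, from 13.1 through 15.4 to 24.4 in stable tumours and from 10.0 through 20.6 to 35.0 CPM in non-responders. The controls, at 9.27, 10.9, 7.20, 7.81 and 11.4 CPM, lay below every stable tumour. In responder minus non-responder Mx1 had a log2 fold change of -0.18 ± 0.27 (adjusted p = 0.602), and it was 1.97-fold higher in responders than in controls (0.98 ± 0.30, adjusted p = 0.00621). Of the 4 responders under a 70% protein-coding share, 3 had the highest Mx1 levels of the group, 23.9, 24.4 and 31.7 CPM. With the share as a covariate the Mx1 difference from controls was 0.64 ± 0.38 (adjusted p = 0.169), and with the 4 responders at or above 70% it was 0.54 ± 0.31 (adjusted p = 0.148).

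Most of the other members were also lower in responders than in non-responders when the composition of the libraries entered the comparison. Once the protein-coding share entered as a covariate, 7 members were lower (4.96% of all genes were), and Ifi44 and Usp18 missed the threshold at adjusted p of 0.073 and 0.107. With only the 4 responders at or above 70%, 8 were lower (11.3% of all genes were), and Usp18 missed it at 0.0556. Composition was not matched there, since 3 of these 4 had shares of 70.3%, 72.7% and 74.3%, below every non-responder (82.9% to 88.4%). Oasl1 was then 3.17-fold lower and Rsad2 2.76-fold lower, as large as in all 8 responders. Endothelial markers, summed over 3 genes, moved with the members, at 36.2 to 85.0 CPM in responders and 116 to 227 CPM in non-responders, and their part in the result was not tested.

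**Figure D2:**
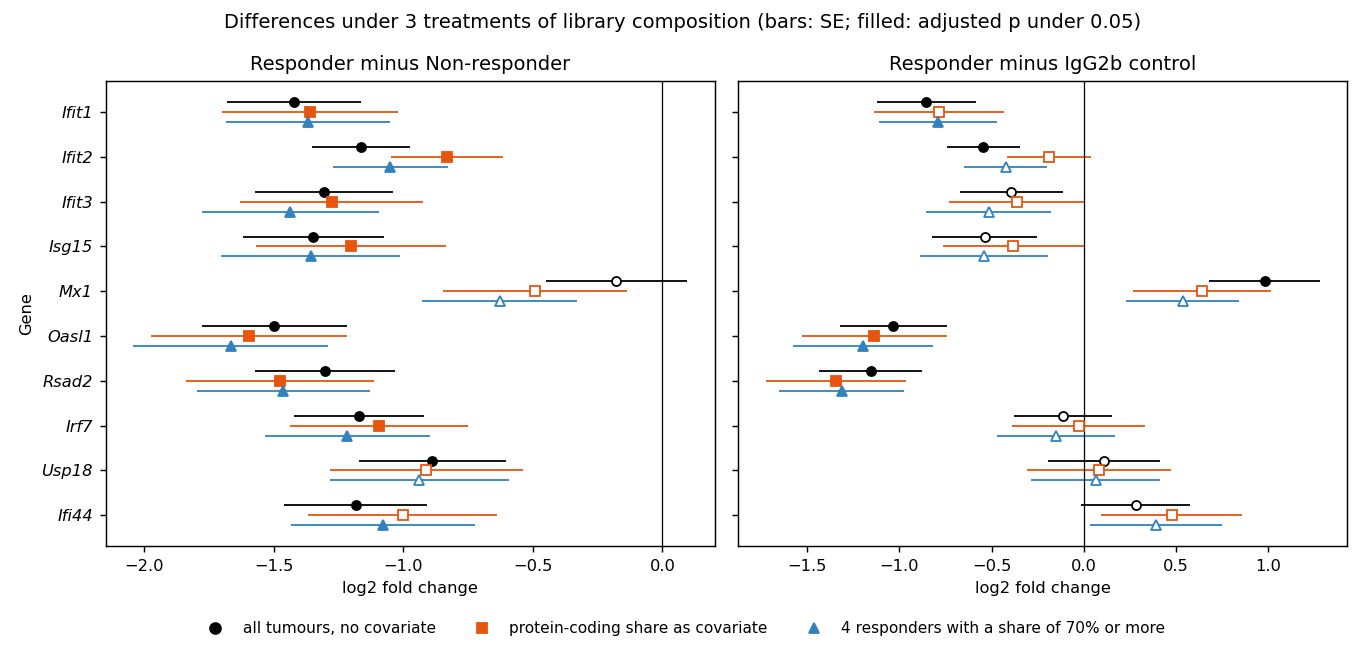
Log2 fold change (x axis) of the 10 antiviral genes in responder minus non-responder and responder minus control, in all tumours (circles), after adding the protein-coding share as covariate (squares) and with the 4 responders of a 70% share or more (triangles). Bars are SE and filled symbols have an adjusted p under 0.05; Oasl1 and Rsad2 are filled throughout, and Mx1 minus control is filled only without the covariate and in all tumours.

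Responders were also compared with stable tumours, both under the same antibody and both with few pigment transcripts. In responder minus stable, 6 members were lower in responders, with 17.8% of all genes called lower. These were Ifit1 (log2 fold change -0.80), Ifit2 (-0.89), Ifit3 (-0.97), Isg15 (-0.85), Ifi44 (-0.84) and Rsad2 (-0.71). Values for the others were -0.70 for Oasl1 (adjusted p = 0.0525), -0.61 for Irf7 (0.0573), -0.53 for Usp18 (0.145) and 0.16 for Mx1 (0.655). None of the 6 calls held with the share as a covariate (edgeR, 0 of 10, with 5 at an unadjusted p under 0.05) or with the 4 responders at or above 70% (0 of 10, with 8 at an unadjusted p under 0.05). In both settings 0% of all genes were called lower, so the loss is not particular to these members, whose median log2 fold change was then -0.68 and -0.76 against -0.75. Rsad2 lost its call without any one of 8 tumours. Macrophage markers, summed over 6 genes, moved the same way, at 812 to 2502 CPM in responders and 1797 to 2829 CPM in stable tumours, and their part in the result was not tested.

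No member was called in stable minus non-responder (edgeR, 0 of 10, with 2 at an unadjusted p under 0.05 and 1 by DESeq2), where 14.9% of all genes were called in either direction. All 10 log2 fold changes were below 0, from -0.80 for Oasl1 (adjusted p = 0.0715) to -0.28 for Ifit2 (adjusted p = 0.388). A missed threshold does not show equal levels. Without non-responder 3, Oasl1 and Irf7 were called lower in stable tumours.

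The non-responders differed widely among themselves, with the same tumours high or low across the members. Non-responder 1 had the highest value of its group for all 10 members, and non-responder 3 the lowest for 9. The mean log2 CPM of the 10 members was 6.18 in non-responder 1, 5.65 in non-responder 6, 5.59 in non-responder 4, 5.27 in non-responder 5, 4.55 in non-responder 2 and 4.44 in non-responder 3. Tumours 2 and 3 thus lay within the control range of 4.21 to 5.11, and the other 4 above it. Melanocyte markers were highest in the same pair, at 5317 and 10140 CPM, with 2786 CPM in non-responder 1 and 378 to 623 CPM in the other 3, and T cell markers (4 genes) were lowest there, at 16.3 and 9.37 CPM. Their part in the spread was not tested.

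Within the other groups single tumours also stood high or low across members. Responder 7 was highest for 7 members, stable tumour 3 for 7 and control 2 for 9, while stable tumour 1 was lowest for 7 and control 3 for 7. Across the 25 tumours the 45 pairs of members had Pearson correlations of log2 CPM from 0.27 to 0.93, with a median of 0.80. The 9 pairs with Mx1 had a median of 0.41, which was 0.76 after each group was centred on its own mean. These correlations are descriptions, since the tumours share group and library composition.

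Against the IgG2b controls, responders had 1 higher member, stable tumours 2 and non-responders 5. The 3 comparisons share the same 5 control tumours, and the differences between these counts were not tested. With only the 2 groups of a comparison fitted, the order of stable tumours and non-responders turned. There 2 members were higher in non-responders and 6 in stable tumours, with 6.45% and 27.4% of all genes called higher. Non-responders had 5 members higher than controls and none lower, with 10.6% of all genes called higher. These were Ifi44 (log2 fold change 1.46 ± 0.32, adjusted p = 0.00314), Mx1 (1.16 ± 0.31, 0.0144), Irf7 (1.06 ± 0.29, 0.0155), Usp18 (0.99 ± 0.33, 0.0427) and Ifit3 (0.91 ± 0.30, 0.0461). The remaining 5 ran from 0.14 for Rsad2 (adjusted p = 0.781) to 0.81 for Isg15 (adjusted p = 0.0803). Ifit3 and Usp18 were near the threshold, losing their call without any one of 15 and 9 tumours.

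In stable minus control, Ifi44 (1.12 ± 0.32, adjusted p = 0.00589) and Mx1 (0.82 ± 0.31, adjusted p = 0.0374) were higher, with 22.2% of all genes called higher, so 2 of 10 is near the background. Fitting only these groups added Ifit2, Ifit3, Irf7 and Usp18, and 6 of 10 is above the 27.4% of all genes called in that fit. Ifi44 and Mx1 separated from controls without overlap, while Ifit2, Ifit3, Irf7 and Usp18 overlapped with them. The share of all genes without overlap was not counted. Rsad2, Oasl1 and Ifit1 had log2 fold changes of -0.45, -0.34 and -0.06 there, with adjusted p of 0.242, 0.412 and 0.899.

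Responders had 4 members below the controls, which were not given the therapeutic antibody. These were Rsad2 (log2 fold change -1.16 ± 0.28, 2.23-fold, adjusted p = 0.00103), Oasl1 (-1.03 ± 0.29, 2.05-fold, adjusted p = 0.00351), Ifit1 (-0.85 ± 0.27, adjusted p = 0.00787) and Ifit2 (-0.55 ± 0.20, adjusted p = 0.0186). Only Mx1 was higher, and the other 5 ran from -0.54 for Isg15 to 0.28 for Ifi44. Of all genes, 28.9% were called lower and 36.1% higher, so 4 of 10 is not far from the background, and the median log2 fold change of all genes was 0.16. Rsad2 and Oasl1 held with the share as a covariate (-1.34, adjusted p = 0.00662 and -1.14, adjusted p = 0.0225) and with the 4 responders at or above 70%, where 19.4% and 23.4% of all genes were called lower. With the covariate Ifit1 and Ifit2 lost their calls, at -0.79 (adjusted p = 0.0725) and -0.19 (adjusted p = 0.525), and with the 4 responders Ifit1 held and Ifit2 did not.

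The listed interferon gamma genes were all above the controls. The GTPase genes of this list (Gbp2, Gbp4, Gbp6, Igtp, Irgm2 and Iigp1) also answer to type I interferon. The list is therefore not specific to interferon gamma. All 17 of the listed gamma genes were higher than in controls in responders (median log2 fold change 2.90), in stable tumours (3.60) and in non-responders (2.41). Of all genes, 36.1%, 22.2% and 10.6% were called higher in these comparisons. Ido1 was near the floor, with 0, 0, 0, 1 and 0 counts in controls and 4, 0, 0, 6, 1 and 28 in non-responders. T cell and macrophage markers were also lowest in controls, with median sums of 5.91 and 543 CPM against 58.2 and 963 in responders, 76.8 and 2158 in stable tumours and 40.9 and 1047 CPM in non-responders, and their part in the rise was not tested. In responder minus non-responder 4 of the 17 were higher and none lower, where 25.2% of all genes were called higher, so this count is at the background. The 4 included Ciita, the master regulator of MHC class II (0.80 ± 0.30, adjusted p = 0.0337), the feedback inhibitor Socs1 (0.74 ± 0.29, adjusted p = 0.036) and Nos2, the inducible nitric oxide synthase (2.43 ± 0.61, adjusted p = 0.00272). Cxcl9, a T cell attracting chemokine, had -0.11 ± 0.37 (adjusted p = 0.825), and Cxcl10, which answers to both kinds of interferon, had -0.05 ± 0.35 (adjusted p = 0.909). In stable minus non-responder 9 of the 17 gamma genes were higher, where 7.08% of all genes were, against none of the 10 antiviral members. In responder minus stable the gamma genes and the members had the same direction, with 4 of the 17 lower and none higher (17.8% of all genes were lower), among them Cxcl9 (-1.07 ± 0.37, adjusted p = 0.0259). None of these 4 calls held with the share as a covariate or with the 4 responders at or above 70%, where no gene of the whole table was called. The other gamma counts given here are from the fit without the share.

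**Figure D3:**
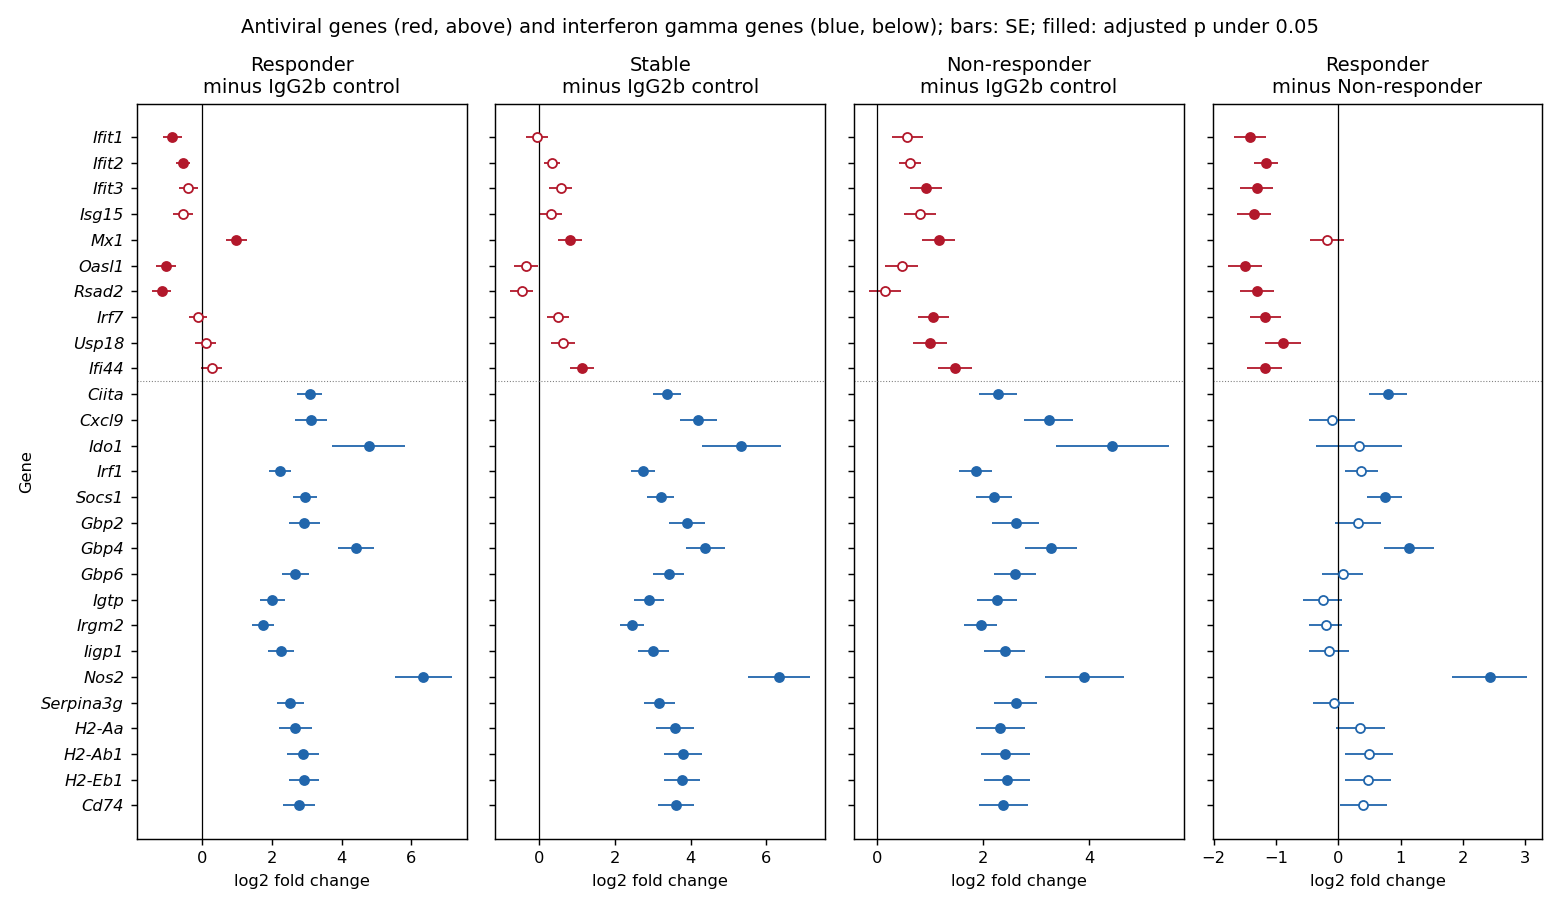
Log2 fold change (x axis) of the 10 antiviral genes (red) and the 17 gamma genes (blue) in 4 comparisons. Bars are SE and filled circles have an adjusted p under 0.05. All 17 gamma genes lie to the right of 0 against controls in each outcome group, while 9 of the 10 antiviral genes lie to the left of 0 with filled circles in responder minus non-responder.

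The 2 sets can be set side by side in each tumour as the mean log2 CPM of the members and of the gamma genes. The members' mean was 4.56 ± 0.35 in controls (SD, n = 5), 4.20 ± 0.43 in responders (n = 8), 4.91 ± 0.32 in stable tumours (n = 6) and 5.28 ± 0.67 in non-responders (n = 6). For the gamma genes it was 4.76 ± 0.51, 7.69 ± 0.24, 8.37 ± 0.19 and 6.96 ± 1.12 in the same order. The difference, members minus gamma genes, was therefore -3.49 ± 0.40 in responders, -3.47 ± 0.23 in stable tumours, -1.68 ± 0.73 in non-responders and -0.21 ± 0.46 in controls. It ran from -4.03 to -2.85 in responders and from -2.93 to -0.97 in non-responders, overlapping through non-responder 6 at -2.93. No test was made on these means, because the members were chosen with earlier results known.

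**Figure D4:**
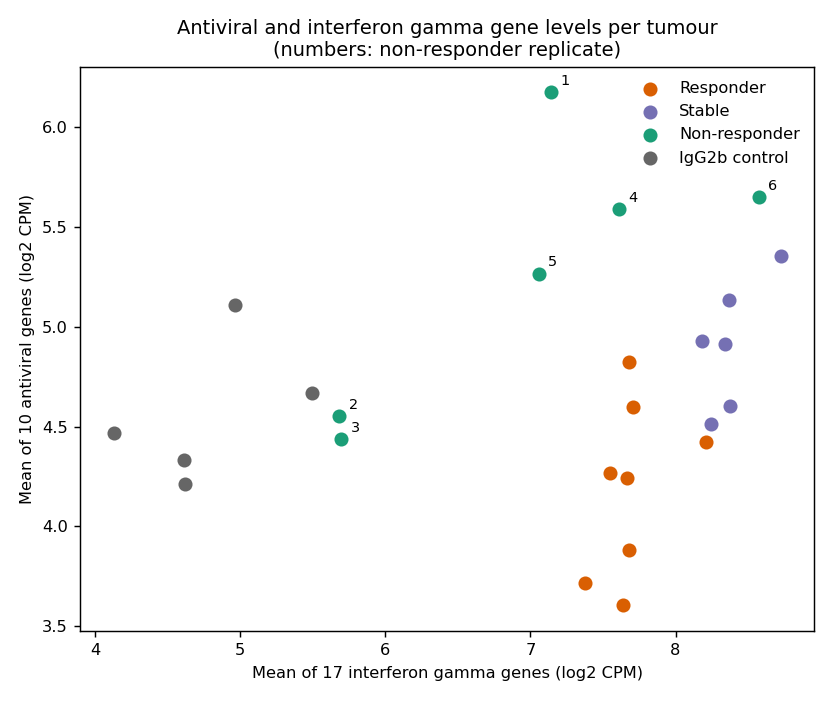
Mean log2 CPM of the 17 gamma genes (x axis) against that of the 10 antiviral genes (y axis), 1 point per tumour, coloured by group, with non-responders numbered by replicate. Responders lie between 7.38 and 8.21 on the x axis and 3.61 and 4.83 on the y axis; non-responders 2 and 3 lie beside the controls, and non-responders 1, 4, 5 and 6 lie above every responder on the y axis.

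Transcripts of the type I interferons themselves were barely detected. Of 18 type I ligand genes, 11 had no count in any of the 25 tumours, and the other 7 had 105 counts in all, 12 in responders, 13 in stable tumours, 37 in non-responders and 43 in controls. Ifnz, an interferon zeta gene, held 81 of them. Ifnb1 had 13 counts in 6 tumours and none in the 8 responders, where 0 counts allow a level of up to 0.0276 CPM (3 counts over the group, counting error only). Scaled to depth, the 18 genes summed to 0.111 CPM in responders, 0.113 in stable tumours, 0.277 in non-responders and 0.310 CPM in controls, and Ifnz had counts in all 5 controls and all 6 non-responders, but in 4 of 8 responders and 3 of 6 stable tumours. The difference between groups was not tested. Ifng, the interferon gamma gene, was measured at 6.18 ± 1.54 CPM in stable tumours, 3.57 ± 1.56 in responders, 2.86 ± 2.93 in non-responders and 0.23 ± 0.19 CPM in the control tumours (SD). It was higher than in controls in all 3 groups (log2 fold changes 3.66, 4.00 and 4.76 in non-responders, responders and stable tumours, adjusted p of 0.000793, 1.81e-05 and 8e-06) and had 0.34 ± 0.50 in responder minus non-responder (adjusted p = 0.587).

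Receptor and signalling genes showed no fall in responder minus non-responder that passed the test. Of 16, none was lower there and 4 were higher, the share of all genes being 25.2%, among them Irf3, a factor that starts interferon production (0.35 ± 0.10, adjusted p = 0.00923). Irf3 stood at 30.0 to 31.1 CPM in responders 2, 3 and 5, those with the highest protein-coding shares. It ran from 33.9 to 46.7 CPM in the other responders and from 25.4 to 30.9 CPM in non-responders. For the receptor chains, responder minus non-responder gave 0.11 ± 0.09 for Ifnar1 (adjusted p = 0.319) and 0.02 ± 0.16 for Ifnar2 (adjusted p = 0.912). Stat2 had 0.39 ± 0.23 (adjusted p = 0.148) and Irf9 -0.36 ± 0.15 (adjusted p = 0.0525). In responder minus stable 7 of the 16 were lower (17.8% of all genes were), among them Irf9 (-0.41 ± 0.15, adjusted p = 0.034) and Ifnar2 (-0.49 ± 0.15, adjusted p = 0.0173). None of the 7 held with the share as a covariate or with the 4 responders at or above 70%, where no gene of the whole table was called lower.

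Other antiviral genes were mixed, some falling in responders and some not. Of 40 further genes known as type I targets, 15 were lower and 2 higher in responder minus non-responder, where 23.8% of all genes were lower and 25.2% higher. Lower were, among others, Ifi27l2a, with the largest fall (log2 fold change -2.07 ± 0.33, adjusted p = 8.57e-05), the nucleotide kinase Cmpk2, which neighbours Rsad2 in the genome (-1.61 ± 0.24, adjusted p = 6e-05), and the RNA sensors Ddx58, Dhx58 and Ifih1. Oas1b and Uba7, the enzyme that activates Isg15 for joining, were higher. Both were lowest in responders 2, 3 and 5, those with the highest protein-coding shares. There Uba7 stood at 82.8 to 103 CPM and Oas1b at 5.53 to 8.32 CPM. These values lay within the non-responder ranges of 36.0 to 146 CPM and 4.30 to 10.3 CPM. Against controls, 20 of the 40 were higher in responders and 4 lower (Cmpk2, Ifi27l2a, Ifit3b and Ifitm3), 23 were higher and none lower in stable tumours, and 27 were higher and none lower in non-responders. The shares of all genes called higher in these comparisons were 36.1%, 22.2% and 10.6%. Oasl2, a relative of Oasl1, was higher than in controls in responders (1.09 ± 0.26, adjusted p = 0.000824), where Oasl1 was lower.

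The genes whose levels were most like the members' mean over the 25 tumours were mainly from that wider set. Among 13189 protein-coding genes with at least 1 CPM on average, the 10 with the highest Pearson correlation of log2 CPM were Oas1a (0.96), Phf11d (0.94), Ifit3b (0.93), Ddx58 (0.92), Rtp4 (0.92), Dhx58 (0.90), Cmpk2 (0.89), Eif2ak2 (0.87), Ifi27l2a (0.83) and Apol9b (0.83). After centring on group means, Oas1a had 0.95 and Apol9b 0.90. Of the first 100 genes, 20 were among the 40 further type I targets and none among the 17 gamma genes. With 100 of 13189 genes taken, none of 17 would also be likely for an unrelated list. That count alone therefore says nothing about the gamma genes. Within non-responders (n = 6), the members' Pearson correlations with Ifng ran from 0.56 for Isg15 to 0.94 for Ifit3, with non-responders 2 and 3 at the low end of the members. Within responders (n = 8) they ran from -0.13 for Mx1 to 0.72 for Ifit2, and within stable tumours (n = 6) from 0.34 for Ifi44 to 0.89 for Usp18. Correlations with Cxcl9 ran from 0.59 (Isg15) to 0.90 (Ifit3) in non-responders and from -0.36 (Oasl1) to 0.49 (Ifit2) in responders. In stable tumours those with Cxcl9 were all below 0, from -0.755 (Isg15) to -0.16 (Ifi44).

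Markers of plasmacytoid dendritic cells, a main source of type I interferon, were low in every group. Summed over 4 genes they ran from 3.12 to 7.77 CPM in responders, 4.67 to 8.14 in stable tumours, 1.42 to 7.28 in non-responders and 0.60 to 4.42 CPM in controls, with medians of 4.28, 6.53, 5.39 and 2.66 CPM in that order. The genes of this list did not move together, since Siglech had medians of 1.85 CPM in responders and 1.26 in non-responders, and Cox6a2 had 1.15 and 2.07 CPM. T cell markers (4 genes) ran from 38.2 to 114 CPM in responders and from 9.37 to 82.2 CPM in non-responders, with medians of 58.2 and 40.9 CPM. The ranges of both marker sums overlapped between responders and non-responders.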

How the data were processed

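RNA was sequenced from 25 tumours with a stranded total RNA kit, per the labels' protocols, although the molecule is labelled as polyA RNA; this was not resolved. The submitters' processing notes name bcl2fastq 2.17, Trimmomatic, STAR 2.5.1, RSEM 1.2.22 and mm10. The authors deposited estimated counts (expected counts) for 55450 genes, not normalized, with 5.64% of values not whole, and these were rounded. The deposited RPKM table (19495 symbols used, 27 others turned into dates) has gene lengths and denominators not given in the sources used here; it served for levels between genes and as an alternative.

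Genes were filtered with filterByExpr (18031 kept), libraries scaled with TMM, and edgeR 4.0.16 (R 4.3.3) robust quasi-likelihood F tests fitted over all 25 tumours and 4 groups, two-sided, with Benjamini-Hochberg adjustment over all genes tested; calls are under 0.05. SE were derived from the fold change and F. Log2 CPM used a prior count of 2. Simulated data with the responder minus non-responder design recovered 80% of 2-fold changes, with 1.7% of calls false. The other designs recovered fewer, with more calls false. Recovery was 67% (2.4% of calls false) for responder minus stable and 67% (5.4%) for stable minus non-responder. It was 74% (5.3%) for responder minus control, 59% (7.4%) for stable minus control and 68% (3.0%) for non-responder minus control. Replicate numbers follow accession order and pair no tumours. The labels do not say more about separate handling, so p-values measure the spread between these tumours.

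The members and lists were chosen with earlier results of these data known. All 10 members were named; from each list, the called genes with the highest and lowest fold change and preset signalling genes, and other genes named as examples were chosen after their values were seen. Of the preset genes, 1 is not reported here. Alternatives were DESeq2 1.42.0, RLE size factors, other filters, only the groups compared, protein-coding genes only, the share as covariate, a 1.5-fold minimum, limma 3.58.1 on log2(RPKM + 1) or log2(RPKM + 0.1), and leaving out tumours. The 70% limit and the log2 share covariate were added after the data were seen.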

Additional observations from a re-analysis of the deposited data

Results flagged for a closer look

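Of 40 combinations of a member and a group, 2 held a tumour set apart from its group, and chance gives about 1 in 20. Gaps and ranges were taken on log2 values, not on CPM itself. Ifit2 was lowest in control 3, at 55.1 CPM. Its gap to the next control was 0.714 of the group's log2 range, barely above the critical value of 0.71. Rsad2 was highest in control 2, at 57.1 CPM, with a gap of 0.805 of the log2 range. Control 2 also had the highest value of its group for 9 of the 10 members.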

How the results depend on the processing

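Of 27 called member differences, recomputed under 1012 alternative values in all, 904 kept direction and call, 108 kept direction but lost the call and 0 changed sign. The 9 members lower in responder minus non-responder were 7 to 9 in all alternatives. The 6 lower in responder minus stable became 0 with the protein-coding share as covariate, with its log2, with the 4 responders at or above 70% and with a 1.5-fold minimum. In the same settings 0 genes of the whole table were called lower with the share or those 4 responders, and 11 with its log2. In responder minus control 5 became 2 with the share, 3 with its log2, 3 with those 4 responders and 1 with a 1.5-fold minimum. In stable minus non-responder 0 became 1 under DESeq2 (Oasl1). In stable minus control 2 became 1 with no low-count filter, 1 with limma on either RPKM scale, 0 with a 1.5-fold minimum and 6 with only those groups fitted. In non-responder minus control 5 became 3 with no filter, 2 with only those groups and 1 with a 1.5-fold minimum. The cause was not tested.

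Leaving out 1 tumour gave 8 to 9 members in responder minus non-responder, 4 to 8 in responder minus stable, 0 to 2 in stable minus non-responder (2 without non-responder 3), 5 to 5 in responder minus control, 1 to 2 in stable minus control and 2 to 7 in non-responder minus control. Stable minus control fell to 1 without any one of stable 3, 4 or 6 or control 1, 3 or 4. Non-responder minus control fell to 3 without any one of stable 4, non-responder 1, 4, 5 or 6 or control 1, 3 or 5, and to 2 without control 4. The members minus gamma difference, responder minus stable, was -0.03 and became 0.329 with medians over genes and 0.066 with log2(RPKM + 1), with no test. Leaving out 1 tumour gave -0.12 to 0.05 for it, -2.06 to -1.67 for responder minus non-responder, -2.03 to -1.64 for stable minus non-responder, -3.44 to -3.15 for responder minus control, -3.41 to -3.12 for stable minus control and -1.63 to -1.23 for non-responder minus control. No paired analysis was possible because replicate numbers carry no pairing.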
